A study of Mus musculus with 8 samples.

Results

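The genes described here were silent in macrophages without disulfiram and carried reads in every library that received it. Each had at most 3 counts summed over the 4 libraries without the drug and at least 20 counts in each of the 4 libraries with it. Symbols starting with Hist, Usp17l, Tex19 or Zfp were left out, which removed 5 of the 122 rows that met both thresholds (4 of the Usp17l family and 1 histone gene). The 117 genes that remained, called members below, are 117 of 55414 rows in the table, and 35641 rows met the limit on counts without the drug. Levels with against without the drug chose the members, so their gain with the drug is a description and carries no test.

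The cells were iBMDM, an immortalized mouse macrophage line of bone marrow origin and wild-type (WT) genotype, and the labels do not state that the replicates of a group were separate cultures. Any p-value therefore weighs a difference against variation between libraries that could be purely technical. The 8 libraries formed 4 groups of 2, all from the same WT line. DSF+LPS cells had disulfiram (DSF) at 5 μM for 0.5 h, followed by lipopolysaccharide (LPS) at 1 μg/ml for 4 h, DSF cells had the drug and then water, LPS cells had the solvent DMSO and then LPS, and control cells had DMSO and water. The study asked whether the drug inhibits the activation of the LPS receptor TLR4.

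Disulfiram is an aldehyde dehydrogenase inhibitor prescribed against alcohol dependence, and its breakdown products bind copper and other metals. A macrophage, like any differentiated cell, transcribes only part of the genome. Genes reserved for muscle, nerve, skin or sperm are kept off by closed chromatin and by the lack of their activators. LPS, a component of the outer membrane of Gram-negative bacteria, is sensed by TLR4 and activates the transcription factors NF-kB and AP-1, which raise cytokine genes in macrophages.

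Promoter sequences were taken at the annotated starts of these genes, and whether their transcripts began there was not tested. RefSeq held a promoter window (250 bases before to 50 after the annotated start, assembly GRCm38.p6) for 68 of the 117 members. Each window was searched on both strands for the heat shock element cores GAANNTTC and TTCNNGAA, the AP-1 motif TGANTCA, the antioxidant response element core TGACNNNGC, the cAMP response element TGACGTCA, the metal response elements TGCACNC and TGCGCNC, the NF-kB motif GGGNNTTCC and the TATA box TATAAA. An antioxidant core can overlap an AP-1 motif. Of the 4 windows printed, Uncx is shown as the most abundant member with 0 counts in every library without the drug, Mmp28 as another of the 10 most abundant, Flg as a skin gene with a TATA box, and Sphk1 as a gene with an NF-kB motif. Capitals mark matches. The windows lie at chr5:139543648-139543947 on the plus strand (Uncx), chr11:83462991-83463290 on the minus strand (Mmp28), chr3:93273296-93273595 on the plus strand (Flg) and chr11:116530850-116531149 on the plus strand (Sphk1).
Uncx: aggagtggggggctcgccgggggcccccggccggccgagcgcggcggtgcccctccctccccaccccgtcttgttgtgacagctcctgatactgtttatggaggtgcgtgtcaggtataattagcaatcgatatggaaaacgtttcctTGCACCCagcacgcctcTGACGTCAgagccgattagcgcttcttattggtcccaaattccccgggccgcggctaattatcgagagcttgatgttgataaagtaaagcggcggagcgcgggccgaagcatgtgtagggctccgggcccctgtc
Mmp28: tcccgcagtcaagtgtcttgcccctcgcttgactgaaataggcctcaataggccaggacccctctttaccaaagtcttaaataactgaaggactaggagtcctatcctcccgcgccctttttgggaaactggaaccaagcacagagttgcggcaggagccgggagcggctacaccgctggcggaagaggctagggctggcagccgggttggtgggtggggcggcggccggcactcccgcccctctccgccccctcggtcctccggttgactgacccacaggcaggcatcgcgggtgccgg
Flg: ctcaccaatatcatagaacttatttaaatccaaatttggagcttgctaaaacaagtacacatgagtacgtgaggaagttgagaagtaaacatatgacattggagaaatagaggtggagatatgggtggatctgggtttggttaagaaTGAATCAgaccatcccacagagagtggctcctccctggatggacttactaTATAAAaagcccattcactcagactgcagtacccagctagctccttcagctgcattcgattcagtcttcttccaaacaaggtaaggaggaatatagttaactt
Sphk1: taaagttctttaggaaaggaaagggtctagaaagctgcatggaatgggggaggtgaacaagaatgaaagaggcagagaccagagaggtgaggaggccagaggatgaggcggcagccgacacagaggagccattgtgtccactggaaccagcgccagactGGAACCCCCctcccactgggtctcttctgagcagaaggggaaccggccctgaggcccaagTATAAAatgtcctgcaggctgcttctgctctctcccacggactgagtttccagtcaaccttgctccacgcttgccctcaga
The Uncx window held a metal response element and the cAMP response element, the Flg window an AP-1 motif and a TATA box, and the Sphk1 window an NF-kB motif on the opposite strand and a TATA box. None of the 9 searched motifs was found in the Mmp28 window, which says only that these letters are not in it. A match is a string of letters and not a bound site.

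Depth was similar in all groups, at 17822041 to 21694922 counts per library. The 8 macrophage markers (among them Adgre1, Csf1r and Cd68) were detected in every library. They summed to 1942 to 2207 CPM (a gene's counts after scaling all libraries to the same size) with the drug and 2132 to 2445 CPM without it. Single markers differed: Csf1r averaged 483 CPM with the drug and 832 CPM without it, Fcgr1 10.4 and 48.3 CPM, and Cd68 796 and 575 CPM. Means of Itgam, Adgre1 and Cd14 were also lower with the drug, and those of Lyz2 and Mertk were higher. None of the markers of other cell types was a member, but 2 of them missed only the floor of 20 counts. The epithelial marker Krt5 had 27 and 29 counts in DSF+LPS libraries and 7 and 11 in DSF libraries. The germ cell marker Stra8 had 20 and 22 counts with both agents and 11 and 36 with DSF. Both had 0 counts in each of the 4 libraries without the drug. The 4 endothelial markers summed to 7.69 to 10.98 CPM with the drug and 8.69 to 13.9 CPM without it. Most of it came from Kdr, which averaged 6.98 CPM with the drug and 8.77 CPM without it. Cdh5 was also lower with the drug (means of 1.71 and 2.00 CPM), whereas Pecam1 (1.09 and 0.268 CPM) and Tek (0.197 and 0.0281 CPM) were higher. With the drug and without it, the 5 muscle markers summed to 1.47 to 1.80 CPM and 0.328 to 0.567 CPM, mostly from Myh3 (means of 1.17 and 0.283 CPM), and the 5 neuron markers to 1.84 to 4.14 CPM and 0.142 to 0.702 CPM, nearly all from Tubb3 (means of 2.84 and 0.345 CPM). The neuron markers Snap25, Stmn2 and Syt1 had at most 4 counts in any library, and Rbfox3 and the muscle regulator Myog had 0 in all 8. The 5 germ cell markers summed to 1.48 to 3.15 CPM with the drug and 0 to 0.281 CPM without it, the 5 epithelial markers to 0.876 to 2.24 CPM and 0 to 0.142 CPM, and the 6 fibroblast markers to 0.357 to 1.98 CPM and 0 to 0.661 CPM. In the same order, the 3 B cell markers summed to 1.12 to 2.71 CPM and 0.189 to 0.521 CPM, mostly from Cd79a. The 4 erythroid markers summed to 0.458 to 1.24 CPM and 0.0947 to 0.468 CPM. The 5 embryonic stem cell markers summed to 0.3055 to 0.856 CPM and 0 CPM, and the 4 T and NK cell markers to at most 0.0461 CPM and 0 CPM. The part of these markers in the results was not tested. In bulk RNA, a few cells with much of a transcript and many cells with little of it cannot be told apart.

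Reads from silent genes were spread far wider than the 117 members. Among silent rows that were not members, 6260 and 4699 had at least 1 count in the DSF+LPS libraries and 5665 and 5514 in the DSF libraries, against 1517 and 1511 in the LPS libraries and 1335 and 1548 in the control libraries. The rows were chosen for low counts without the drug, so this difference is not tested. Of the 35641 silent rows, 2135 had at least 1 count in each drug library, 598 at least 5, 288 at least 10, 122 at least 20, 31 at least 50 and 10 at least 100. These cut-offs are nested, so the numbers of rows can only fall. The rule chose the members by the same minimum count, so they are the upper end by construction. The opposite pattern, at most 3 counts over the 4 drug libraries and at least 20 in each of the others, was met by 0 rows. It does not follow that genes only rose. In edgeR's test of DSF against control, 27.1% of the genes tested were lower and 31.0% higher (adjusted p under 0.05).

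**Figure D1:**
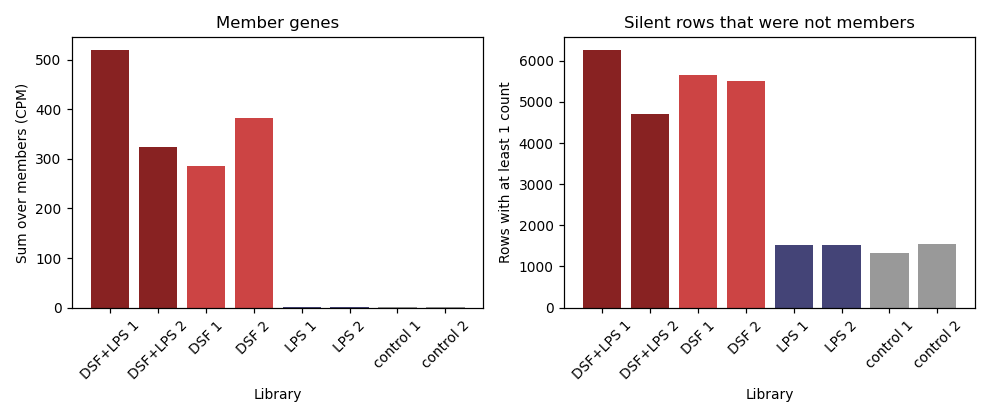
Summed level of the 117 members in CPM (left) and number of silent rows that were not members with at least 1 count (right), 1 bar per library. The 4 drug libraries hold 285 to 520 CPM of member transcripts and the other 4 hold 1.42 to 1.71 CPM, and DSF+LPS replicate 1 is the highest in both panels.

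At the floor, 13 members had exactly 20 counts in their lowest drug library, among them 1110002E22Rik, Gm48727 and AC151410.1. Just outside it were Mslnl, Tnc (tenascin C, a matrix protein) and Dll1 (a Notch ligand), each with 19 counts in DSF+LPS replicate 2. Just outside the ceiling, with 4 counts over the libraries without the drug, were Atp1b2, Ermap and Muc3, whose lowest drug libraries had 90, 58 and 61 counts. Just inside it, at 3 counts, were Plekha6, Rtn4r and Cpm.

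Most members encode proteins. Protein-coding genes were 87 of the 117 members (74.4%), against 8672 of the silent rows that were not members (24.4%). Pseudogenes made up 17 members (14.5%) and 29.1% of those other silent rows, and long non-coding RNAs 12 members (10.3%) and 21.6%. The floor is in counts, which favours long transcripts: the median exon length was 3531 bases over protein-coding members and 2423 bases over protein-coding silent rows that were not members. The olfactory receptor genes, a large family of odorant sensors that is normally silent outside the nose, had 1407 rows, and 0 were members. At least 1 count was found for 121 and 77 of them in DSF+LPS libraries and 106 and 107 in DSF libraries, against 43 and 39 in LPS libraries and 30 and 30 in control libraries.

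Levels were low in absolute terms. The mean over the 4 drug libraries ran over the members from 1.09 to 18.4 CPM with a median of 2.37 CPM, and 17 members reached 5 CPM. Per kilobase of exon, members ran from 0.109 to 13.6 CPM per kb with a median of 0.953, against a median of 4.19 CPM per kb over the 16243 tested genes with a known length, 24.3% of which lay below the median member. The long non-coding RNA Gm16095 was the highest member on the per-kilobase scale at 13.6 CPM per kb, then the pseudogene Gm29791 at 12.7, and of protein-coding genes Cryba4 was at 5.35.

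Because many members had no reads without the drug, most gains are lower bounds. In DSF against control, 69 members had 0 control counts, and their DSF level was at least 13.6-fold to at least 123-fold higher, taking 3 counts over the control group as the floor. For the other 48 the ratio of CPM ran from 21.9 to 589. In DSF+LPS against LPS, 75 members had 0 LPS counts and were at least 16.2-fold to at least 173-fold higher, and the ratio ran from 24.9 to 951 for the other 42. Of the 117, 48 had 0 counts in all 4 libraries without the drug. The bounds take the drug counts as they stand, without their counting error, and the intervals take in counting error alone. PCR copies among the reads were not measured and would make the true error larger.

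Muscle genes included the most abundant protein-coding member. The groups by usual tissue or role in this and the next paragraphs were made for members alone. The other silent rows were not assigned, so no background share stands beside the group counts. Myo18b, an unconventional myosin needed for sarcomere assembly, had 281 and 294 counts in DSF+LPS libraries and 253 and 312 in DSF libraries, against 0 and 1 in LPS libraries and 0 and 1 in control libraries. It averaged 15.1 ± 1.32 CPM in DSF+LPS and 13.8 ± 3.29 CPM in DSF (SD, n = 2 each), and these ranges overlap. The ratio of DSF to control was 576 with a 95% counting interval of 103 to 22800. Cacna1s, the voltage sensor of skeletal muscle contraction, had 80 and 42 counts in DSF+LPS libraries and 47 and 70 in DSF libraries, and 0 counts in the other 4. Jph2, which ties the cell membrane to the calcium store of heart muscle, had 86 and 38 counts with both agents and 38 and 54 with DSF, against 0 and 1 with LPS and 1 and 0 in control. The remaining muscle members were Xirp1, an actin-binding protein of heart cell junctions, Ampd1, the AMP deaminase of skeletal muscle, and Hhatl, a gene active in heart and skeletal muscle. The 6 muscle members summed to 34.4 and 28.7 CPM in DSF+LPS libraries and 22.0 and 31.1 CPM in DSF libraries, ranges that overlap.

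Members of cilia, sperm and testis numbered 11. Ccdc13, a protein of centriolar satellites, was the most abundant with 153 and 64 counts in DSF+LPS libraries and 87 and 92 in DSF libraries, and 0 in each of the other 4. Dnah2 and Dnah3 encode heavy chains of the dynein motors that bend cilia. Dnah2 had 89 and 46 counts with both agents and 48 and 48 with DSF, against 0 and 1 with LPS and 1 and 0 in control. Tekt4, a tektin of the sperm tail, had 71 and 83 counts in DSF+LPS libraries and 30 and 54 in DSF libraries, so that its groups did not overlap. Prss55 and Prss51 encode testis serine proteases, Adam30 a testis metalloprotease-like protein, and Cfap74 and Erich3 proteins of cilia. Wdr20rt, a retrotransposed copy of Wdr20, shares sequence with its parent, so its reads are uncertain. With the 11th member, Fam71a, the group ran from 1.32 to 4.98 CPM in its gene means.

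Members of the nervous system and eye numbered 10, and many sit at the cell surface. Cacna1h, a low-voltage-activated calcium channel of neurons, had 336 and 161 counts in DSF+LPS libraries and 167 and 178 in DSF libraries, against 0 and 2 in LPS libraries and 0 and 0 in control libraries. It was at least 117-fold higher in DSF than in control, and its DSF+LPS and DSF values overlap. Rtn4r, the receptor for the axon growth inhibitor Nogo, had 134 and 183 counts with both agents and 160 and 127 with DSF, against 1 and 0 with LPS and 0 and 2 in control. Cryba4, a crystallin of the eye lens, had 110 and 94 counts in DSF+LPS libraries and 69 and 80 in DSF libraries, with both DSF+LPS libraries the higher ones. Epha8, a receptor for ephrins in the developing brain, had 124 and 66 counts in DSF+LPS libraries, 49 and 41 in DSF libraries and 0 in the other 4. Others were Nell2, a secreted neural protein, Igsf9b, an adhesion protein of inhibitory synapses, Neto2, an auxiliary subunit of kainate receptors, Slc1a7, a glutamate transporter of the retina, Elfn2 and Gpr83, which lay between 1.32 and 3.77 CPM.

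**Figure D2:**
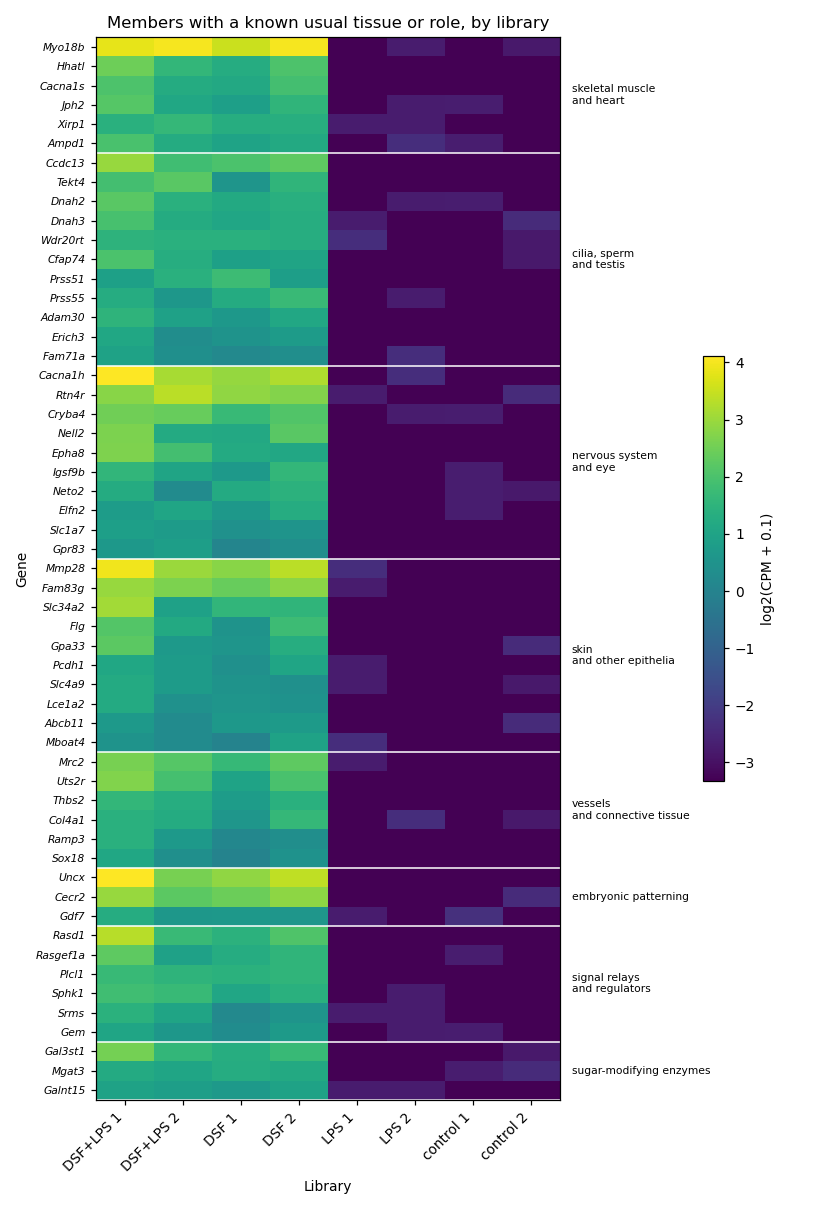
Level of the 55 members assigned by hand to a usual tissue or role in each of the 8 libraries, as log2(CPM + 0.1), with 1 row per gene. Rows are grouped by tissue or role. Left out are the non-coding loci and the 32 protein-coding members that were not assigned. All rows are dark in the LPS and control libraries, as the rule requires, and DSF+LPS replicate 1 holds the brightest cell in most rows.

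Skin and other lining tissues gave 10 members. Mmp28, a metalloprotease of skin and other epithelia, had 306 and 144 counts in DSF+LPS libraries and 150 and 193 in DSF libraries, against 2 and 0 in LPS libraries and 0 and 0 in control libraries. Its lower DSF+LPS library lay between the DSF libraries in CPM, at 7.86 CPM against 6.79 and 9.97 CPM. Fam83g, whose loss gives mice a woolly coat, had 152 and 112 counts with both agents and 113 and 135 with DSF, against 1 and 0 with LPS and 0 and 0 in control. Slc34a2, the phosphate transporter of the lung surface, had 167 and 33 counts in DSF+LPS libraries and 64 and 55 in DSF libraries, and 0 in the other 4, so its DSF+LPS replicates lay on either side of the DSF pair. Flg, the skin barrier protein filaggrin, had 85 and 40 counts with both agents and 29 and 65 with DSF, and 0 in the other 4. Flg overlaps Rplp0-ps1 on the same strand, a copy of a ribosomal protein gene that averaged 10.6 CPM over the drug libraries and 5.64 CPM in control. The others were Lce1a2, of the cornified envelope of skin, Gpa33, a surface antigen of the gut, Abcb11, the bile salt pump of the liver, Mboat4, which acylates ghrelin in the stomach, Slc4a9, a bicarbonate transporter of the kidney, and Pcdh1, a protocadherin of the airway. Lce1a2 belongs to a family of near-identical genes and its reads are uncertain.

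Vessels and connective tissue gave 6 members. Mrc2, a receptor that takes up collagen, had 117 and 79 counts in DSF+LPS libraries and 67 and 91 in DSF libraries, against 1 and 0 in LPS libraries and 0 and 0 in control libraries. Uts2r, the receptor of the vessel-constricting peptide urotensin, had 126 and 68 counts with both agents and 42 and 74 with DSF, and 0 in the other 4. Col4a1, a collagen of basement membranes, had 50 and 42 counts with both agents and 31 and 58 with DSF, against 0 and 2 with LPS and 0 and 1 in control. Thbs2, a matrix protein, Ramp3, a partner of the adrenomedullin receptor, and Sox18, a transcription factor of vessel development, completed the group. Col4a1 has Col4a2 beside it on the opposite strand, at 1.40 CPM over the drug libraries and 0.208 CPM in control.

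Embryonic patterning genes were 3. Uncx, a homeobox transcription factor of the somites, had 341 and 108 counts in DSF+LPS libraries and 160 and 202 in DSF libraries, and 0 in each of the LPS and control libraries. It was at least 162-fold higher in DSF+LPS than in LPS and at least 123-fold higher in DSF than in control, and its DSF values lay between its DSF+LPS values. Cecr2, a chromatin remodelling protein needed to close the neural tube, had 152 and 84 counts with both agents and 118 and 137 with DSF, against 0 and 0 with LPS and 0 and 2 in control. Gdf7, a bone morphogenetic protein of the dorsal spinal cord, had 46 and 26 counts with both agents and 32 and 27 with DSF, against 1 and 0 with LPS and 2 and 0 in control. By symbol, homeobox genes made up 1 of the 117 members (0.855%) and 210 of the other silent rows (0.591%).

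Signal relays gave 6 members and sugar-modifying enzymes 3. Rasd1, a small GTPase induced by glucocorticoids, had 197 and 58 counts in DSF+LPS libraries and 59 and 79 in DSF libraries, and 0 in the other 4. Sphk1, which makes the lipid signal sphingosine 1-phosphate, had 68 and 57 counts with both agents and 44 and 49 with DSF, against 0 and 1 with LPS and 0 and 0 in control, and its groups did not overlap. Gem, a GTPase that restrains calcium channels, had 39 and 26 counts with both agents and 25 and 30 with DSF. The other relays were Plcl1, a phospholipase C-like protein without catalytic activity, Rasgef1a, a Ras exchange factor, and Srms, a tyrosine kinase. Gal3st1, which adds sulfate to myelin lipids, averaged 3.55 CPM over the drug libraries, the highest of the enzymes, the others being Mgat3 and Galnt15, which build sugar chains on proteins.

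Loci without a named product held several of the highest levels. The pseudogene Gm18983 had the highest mean count of all members, with 655 and 224 counts in DSF+LPS libraries and 230 and 347 in DSF libraries, against 1 and 0 in LPS libraries and 1 and 0 in control libraries. Its replicates differed widely, at 33.1 and 12.2 CPM with both agents and 10.4 and 17.9 CPM with DSF. The long non-coding RNA Gm31045 had 250 and 131 counts with both agents and 190 and 205 with DSF, against 0 and 0 with LPS and 2 and 0 in control. Reads of the 17 pseudogenes, and of the serine protease inhibitor Serpina3c and its pseudogene Serpina3d-ps, may come from near-identical copies, since the handling of such reads is not given. Other abundant protein-coding members were Plekha6, a protein with a lipid-binding pleckstrin domain, with 293 and 187 counts in DSF+LPS libraries and 121 and 180 in DSF libraries, and Cpm, the membrane enzyme carboxypeptidase M, with 199 and 68 and with 129 and 144 counts. In 52 members (44.4%) the symbol fell in none of the 12 symbol classes, against 12.6% of the silent rows that were not members. Another 37 (31.6%) were predicted or unnamed loci, against 68.2%. The largest named class, genes of adhesion, matrix and proteases, had 9 members (7.69%), against 0.915%. Predicted or unnamed loci, and rows with no symbol (0 members, against 8.76%), could not fall in a named class. They made up more of the other silent rows than of the members, so the shares of named classes are not strictly alike. No test was made of these shares.

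LPS left the members close to silent when the drug was absent. They summed to 29 and 31 counts in LPS libraries and 33 and 37 counts in control libraries, totals that the ceiling of 3 counts per gene limits, so the effect of LPS without the drug cannot be read from them.

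With the drug present, DSF+LPS was compared with DSF for what LPS added to the gain. The rule set a floor of 20 counts in each library of both groups. A silent row that fell under it in either group could not be a member, as with Tnc and Dll1. All genes tested had no such floor, so the shares below are not strictly alike. In edgeR's quasi-likelihood test with Benjamini-Hochberg adjustment over 16304 genes, 0 of the 117 members were called (adjusted p under 0.05), against 12.1% of all genes tested, 5.53% higher and 6.53% lower. Of all calls, 45.8% were thus higher in DSF+LPS, and 17.5% with scaling by library size alone, which still called 0 members. Without adjustment 5 members had p under 0.05 (4.27%), all higher in DSF+LPS, against 26.6% of all genes. DESeq2 also called 0 members, with 3 at an unadjusted p under 0.05. The members' SE had a median of 0.43 on the log2 scale, against 0.14 over all genes tested, so a change had to be larger to be called. The 95% interval of the fold change included a level 2-fold higher in DSF+LPS for 84 members and 2-fold lower for 19, so the missing calls do not show that LPS left these genes as they were.

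The fitted values leaned upward. The log2 fold change of DSF+LPS over DSF had a median of 0.28 over the members, ranging from -0.54 (Prss55) to 1.19 (Epha8), against a median of -0.003 over all genes. It was above 0 for 96 members and below 0 for 20, against 49.6% of all genes above 0. Both DSF+LPS libraries exceeded both DSF libraries for 24 members (20.5%), a share near the 24.3% of all genes. They lay under both for 1 member (0.855%), against 27.5% of all genes. The floor in each drug library limits both member shares. The upward median rested on DSF+LPS replicate 1: without that library it was -0.05, and without DSF+LPS replicate 2 it was 0.53 with 11 members called. Without DSF replicate 1 the median was 0.13 and 399 genes were called in all, against 1966 with every library in the fit. Without DSF replicate 2 the median was 0.52 and 1 member, Plekha6, was called.

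Epha8 was the member nearest to a call, at 4.93 ± 1.88 CPM in DSF+LPS and 2.17 ± 0.0716 CPM in DSF (SD, n = 2 each). Its log2 fold change was 1.19 (SE 0.36, 95% interval 0.41 to 1.96, edgeR adjusted p = 0.0503), and both DSF+LPS libraries lay above both DSF libraries. The adjusted p ran from 0.00667 to 0.322 over the alternatives. Plekha6 followed among the abundant members, at 12.5 ± 3.24 CPM in DSF+LPS and 7.39 ± 2.70 CPM in DSF, with a log2 fold change of 0.77 (SE 0.26, adjusted p = 0.0694). Cacna1h had a log2 fold change of 0.63 (adjusted p = 0.164) and Gm18983 of 0.69 (adjusted p = 0.213), with 1.05 and 1.26 without DSF+LPS replicate 2, both then called. Uncx and Mmp28 had 0.40 and 0.48 (adjusted p = 0.550 and 0.329), and without DSF+LPS replicate 1 these became -0.59 and -0.10.

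Some of the most abundant members had fitted changes near 0. Myo18b had a log2 fold change of 0.14 with a 95% interval of -0.27 to 0.55 (edgeR adjusted p = 0.716), which leaves out a 2-fold change either way. Gm31045 was at 0.05 (interval -0.52 to 0.62) and Fam83g at 0.19 (interval -0.36 to 0.75), which also leave it out. Rtn4r was at 0.28 (interval -0.27 to 0.82). Cpm was at 0.06 (interval -0.76 to 0.88), a value between DSF+LPS replicates that lay far apart, at 10.0 and 3.71 CPM, against 5.84 and 7.44 CPM in the DSF libraries. Without DSF+LPS replicate 1 it was -0.84, and without replicate 2 it was 0.63. At the low end, Prss55 averaged 1.87 ± 0.638 CPM in DSF+LPS and 2.73 ± 0.663 CPM in DSF, and its log2 fold change of -0.54 had an interval of -1.43 to 0.36. Neto2 was next at -0.52 (interval -1.44 to 0.40).

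The spread between replicates was also seen in sums by tissue. Those of the nervous system and eye members were 51.7 and 38.0 CPM in DSF+LPS libraries and 29.7 and 36.9 CPM in DSF libraries, and those for vessels and connective tissue were 22.3 and 15.4 CPM against 9.87 and 16.5 CPM. Skin and other epithelia gave 49.8 and 26.1 CPM with both agents and 23.7 and 33.4 CPM with DSF, and embryonic patterning genes 27.2 and 11.9 CPM against 14.0 and 18.9 CPM. Cilia, sperm and testis gave 37.0 and 25.8 CPM with both agents and 23.1 and 26.5 CPM with DSF. In each of these sums except that of the nervous system and eye, DSF+LPS replicate 2 lay below DSF replicate 2, and DSF+LPS replicate 1 was the highest in all of them. The median log2 fold change ran over the 8 groups from 0.09 for sugar-modifying enzymes to 0.50 for vessels and connective tissue. The groups were assigned by hand with the members known, and no test was made between them.

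Within each drug group, most members differed between the replicates in the same direction. In DSF+LPS, 96 of the 117 members were higher in replicate 1 than in replicate 2, with a median ratio of 1.50 and a range of 0.617 to 5.19, whereas the median over all tested genes was 0.994. The ratio reached 2 for 25 members and none differed as much the other way. In DSF, 100 members were higher in replicate 2 than in replicate 1, with a median ratio of 1.26 against 0.999 over all tested genes. DSF+LPS replicate 1 gave the highest value of all 8 libraries for 84 members, and the lowest of the 4 drug libraries was DSF replicate 1 for 71 and DSF+LPS replicate 2 for 34. Summed over the members, counts were 10297 and 5946 in the DSF+LPS libraries and 6295 and 7410 in the DSF libraries. Counts of the other silent rows had the same order of drug libraries, with 26964 and 15858 in the DSF+LPS libraries and 19038 and 20536 in the DSF libraries, against 1914 and 2014 in the LPS libraries and 1674 and 2076 in the control libraries. That order holds for unscaled counts. In CPM the member sum was lowest in DSF replicate 1, at 285 CPM, with 324.5 CPM in DSF+LPS replicate 2.

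**Figure D3:**
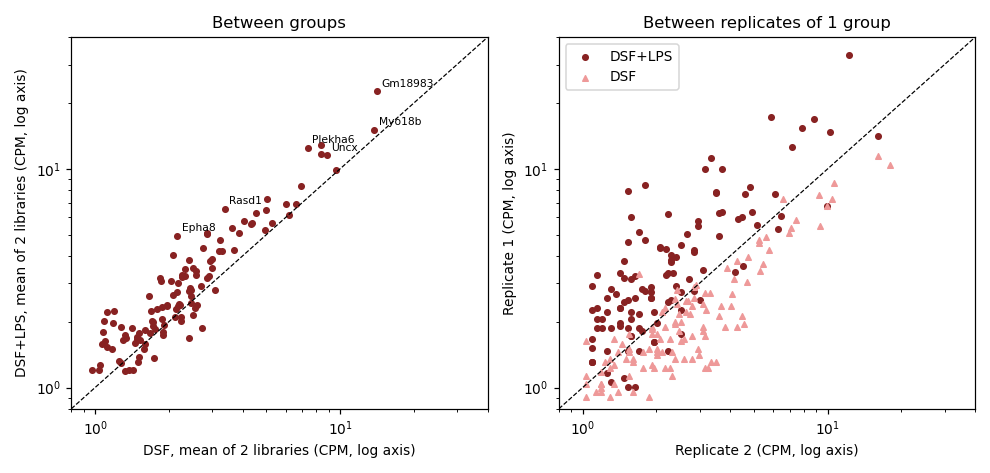
Mean level of each member in DSF+LPS (vertical) against DSF (horizontal), in CPM on log axes (left), and replicate 1 against replicate 2 of each group (right), with 1 point per member and a dashed line of equality. In the left panel 96 members have a fitted fold above 0, and in the right panel DSF+LPS points lie mostly above the line and DSF points mostly below it.

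The surroundings of the members in the genome were described from gene order in the GENCODE M21 annotation. The nearest gene upstream on the same strand reached 5 CPM in the drug libraries for 41 of the 117 members (35.0%), against 14.8% of the silent rows that were not members. Among protein-coding genes alone the shares were 34.5% (30 of 87) and 15.3%. Of the 66 upstream neighbours that were tested, 30 rose in DSF against control (45.5%). This compares with 32.7% of the tested upstream neighbours of the other silent rows and 31.0% of all genes tested. The 30 include 4 members that lie upstream of another member. The rule chose those 4 for their rise with the drug, which lifts the share of 45.5% by construction, so these shares are not strictly alike. A gene at 5 CPM or more overlapped 9 members (7.69%) and 10.6% of the other silent rows. Among protein-coding genes alone the shares were 5.75% and 5.06%. With overlapping genes taken from 1 CPM, the shares were 13.7% and 13.2%, and 11.5% and 6.49% among protein-coding genes. No test was made of these shares, and whether reads continued from a neighbour into a member was not tested.

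Stress genes and other strongly raised genes were among these neighbours. Fam71a lies downstream of Atf3, a stress-induced transcription factor with 826 CPM in DSF+LPS against 218 CPM in LPS, and 623 CPM in DSF against 86.6 CPM in control. Gm29791 lies downstream of Atf5, a factor of the integrated stress response, with 169 CPM in DSF+LPS against 46.1 CPM in LPS, and 162 CPM in DSF against 39.3 CPM in control. Uts2r lies downstream of Tex19.1, a germ cell gene with 247 CPM in DSF+LPS against 0.629 CPM in LPS, and 155 CPM in DSF against 0.208 CPM in control. Cacna1h lies downstream of Sstr5, a somatostatin receptor gene with 21.7 CPM in DSF+LPS against 0.0737 CPM in LPS, and 17.5 CPM in DSF against 0.187 CPM in control. The pattern was not general: the upstream neighbour of Gm18983, Slirp, was at 14.7 CPM in DSF+LPS against 16.6 CPM in LPS, and 15.1 CPM in DSF against 15.2 CPM in control, and that of Myo18b, Grk3, was below 0.21 CPM in all 4 groups. Mgat3, Sox18 and Gem had upstream neighbours that fell in DSF against control (Tab1, Rgs19 and Rad54b, log2 fold changes -0.47, -0.52 and -0.65; edgeR adjusted p = 0.0046, 3.5e-05 and 0.00251).

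Some members lay beside each other. In gene order 6 pairs of members had no gene between them: Cacna1h and Tekt4, Prss55 and Prss51, 4930500L23Rik and Uncx, Hhatl and Ccdc13, Serpina3c and Serpina3d-ps, and CT025671.5 and CT025671.4. Prss55 and Prss51 overlap on opposite strands, so their reads cannot be told apart where strand is not known. The non-coding RNA Gm2895 overlaps Ndrg1 on the opposite strand, a stress-responsive gene at 476 CPM over the drug libraries and 66.6 CPM in control, and Raver2 overlaps Jak1, at 230 CPM and 144 CPM. Pcdh1 likewise overlaps 2010320O07Rik (14.4 CPM over the drug libraries and 0.131 CPM in control), Dnah3 overlaps Lyrm1 (9.12 and 2.25 CPM), AC151410.1 overlaps Ttc27 (43.6 and 65.0 CPM) and Mmp28 overlaps 1700020L24Rik (2.36 and 0.0872 CPM), all on the opposite strand. On the same strand Plcl1 overlaps Gm38056 (11.7 and 9.01 CPM), Gm37033 overlaps Itpkb (28.9 and 34.7 CPM) and Gm43058 overlaps 5031425E22Rik (35.4 and 10.1 CPM). Counts of all these members are uncertain, since the assignment of shared reads is not known.

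Over the 68 members with a promoter window, CpG-rich promoters were rarer than over active genes and more frequent than over other silent genes. A window was called CpG-rich at a GC content of at least 50% and an observed to expected CpG ratio of at least 0.6. This held for 19 of the 68 member promoters (27.9%), against 15.1% of the promoters of other silent rows, 75.0% of those of genes at 5 CPM or more without the drug, and 48.2% of those of other genes that rose at least 2-fold in DSF against control. Over all promoters the share was 34.1%. The sets were not matched for gene type, and members were more often protein-coding than the other silent rows. The Uncx window had an observed to expected CpG ratio of 0.943 and the Flg window one of 0.159. No test was made of these shares.

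Motif shares in the same windows were set beside those of other promoters, with no test. The NF-kB motif was in 9 of the 68 member promoters (13.2%), against 4.49% of the promoters of other silent rows and 5.72% of all 27025 promoters. The 9 were 1110002E22Rik, Capsl, Ccdc13, Galnt15, Gdf7, Golga7b, Hhipl1, Jph2 and Sphk1. The AP-1 motif was in 11 (16.2%), against 9.64% and 7.93%, among them Dnah2, Flg and Slfn14. Either heat shock core was in 14.7% of member promoters, against 17.1% of the promoters of other silent rows and 15.1% of all promoters, the antioxidant core in 10.3%, against 11.1% and 12.5%, and the cAMP response element in 1.47%, against 1.06% and 1.88%. The metal response element TGCGCNC was in 13 member promoters (19.1%), against 9.29% of the promoters of other silent rows and 15.5% of all promoters, and TGCACNC in 10 (14.7%), against 12.2% and 12.4%. The TATA box was in 17.6%, against 19.7% and 14.2%.

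**Figure D4:**
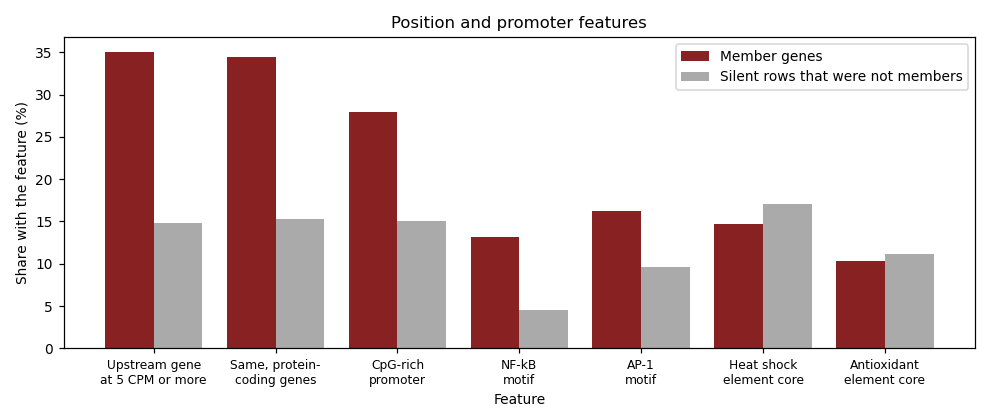
Share (%) of members and of silent rows that were not members with an upstream neighbour at 5 CPM or more, with a CpG-rich promoter and with each of 4 motifs in the promoter window. Bars for members are the taller for the neighbour, CpG, NF-kB and AP-1 features and the shorter for the heat shock and antioxidant cores.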

How the data were processed

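Per the labels' protocols, TRIzol-extracted total RNA went into libraries from a VAHTS mRNA-seq kit. The authors deposited 1 table of whole-number counts per gene, not normalized, for 8 libraries. The submitters' processing notes name GRCm39 and DESeq2. For the aligner, counting tool and annotation, and for how strand and multiply matching reads were treated, the sources used here give nothing.

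Members were found by counts alone. The members, gene lists and alternatives were chosen with earlier results of these data known, and the tissue and role groups were assigned by hand from the symbols of the members. No group was made for blood or immune cells. The 32 protein-coding members left unassigned are not thereby without a known tissue or role. Members named by rule were the 10 with the highest mean count over the drug libraries and those nearest the thresholds, and other members were chosen after their values were seen.

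DSF+LPS was compared with DSF by edgeR 4.0.16 in R 4.3.3 (quasi-likelihood test, TMM scaling, group means over all 8 libraries, filterByExpr with a minimum count of 10 and minimum total of 15), which kept 16304 genes and all 117 members. P-values were adjusted by Benjamini-Hochberg over all of them. SE is the absolute log2 fold change over the root of its F statistic, and intervals are 95%. CPM are counts scaled by TMM library sizes, except marker sums, which use plain totals. Where a group had 0 counts the fold is a bound with 3 counts over the group, and with 1 to 3 counts the ratio has an exact 95% counting interval. Alternatives were DESeq2 1.42.0, other scalings and filters, the drug libraries alone, a replicate block and each library left out. The script was tested on simulated data. Symbols, exon lengths and gene order came from GENCODE M21 (GRCm38), which is not the files' build, so coordinates are printed for RefSeq promoters alone.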

Additional observations from a re-analysis of the deposited data

How the results depend on the processing

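The absence of called members depended on the setting. Beside 0 in the test as reported, 1 member was called with DESeq2 size factors (Epha8), 5 with no low-count filter (Cacna1h, Epha8, Gm18983, Plekha6 and Rasd1) and 0 to 11 when libraries were left out in turn. The cause was not tested. Called genes in all numbered 1966, but 524 with the 4 drug libraries only and 399 to 2406 with libraries left out. The median log2 fold change of the members kept its sign under every planned setting except without DSF+LPS replicate 1, and ran from -0.046 to 0.526 with libraries left out. Scaling by library size alone moved the median of all genes to -0.11 and that of the members to 0.17, and the share of calls that were higher in DSF+LPS from 45.8% to 17.5%. It also turned Gm31045 to -0.055 and Cpm to -0.042.

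The number of members was 48 with a ceiling of 0 counts, 235 with a ceiling of 10, 280 with a floor of 10 and 28 with a floor of 50, and 119 to 150 with libraries left out. Leaving out libraries turned the sign of 8 of the 11 genes followed, whose log2 fold changes ran from -0.21 to 1.26 (Gm18983), -0.086 to 0.41 (Myo18b), -0.59 to 0.99 (Uncx), -0.10 to 0.92 (Mmp28), -0.43 to 0.42 (Gm31045), -0.003 to 0.52 (Rtn4r), -0.84 to 0.63 (Cpm) and -0.005 to 0.44 (Fam83g). They stayed above 0 for Cacna1h (0.06 to 1.05), Plekha6 (0.44 to 1.21) and Epha8 (0.72 to 1.55).

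Same-numbered libraries did not deviate together (r across genes, which are not independent, from -0.119 to 0.0531), so the numbers are not known to pair the samples. With the replicate block 0 members and 2129 genes were called, and Cpm turned to -0.066. With the numbers of DSF+LPS crossed, a setting chosen after seeing the data, 1 member and 2060 genes were called.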
